A study of Eurytemora affinis with 15 samples.

Results

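A set of 59 genes was examined in whole adult males of Eurytemora affinis, a calanoid copepod of estuaries, in which every library from animals held in Tancarville elutriate lay beyond every water Control library while at least 3 of the 6 Fatouville libraries, 1 or more of them at 2500 mg/L, lay within the Control range. These 59 were drawn from 14371 genes with a mean normalised count of at least 50, out of 23728 genes in the deposited table. Of the 59 (0.411% of the 14371), 24 (0.167%) were higher and 35 (0.244%) were lower than Control in all 6 Tancarville libraries. The rule also asked that Tancarville 350 mg/L replicate 1 be under 3 times the higher of replicates 2 and 3, and it would have taken at most 100 genes, ranked by the log2 gap between the nearest Tancarville and Control values. The genes were chosen by these measured values of Tancarville and Fatouville against Control, so these differences are described and not tested.

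The groups were Tancarville elutriate at 2500 mg/L, Tancarville elutriate at 350 mg/L, Fatouville elutriate at 2500 mg/L, Fatouville elutriate at 350 mg/L, and water alone (Control), with 3 libraries in each of the 5 groups. All animals were wild-caught copepods from the Seine estuary, acclimatised at a salinity of 15 psu and 15 °C and then exposed for 72 h, and each library was made from a pool of 30 males that the labels call a biological replicate. Tancarville and Fatouville are the 2 sites whose sediments gave the elutriates. The comparisons ask whether sediment from either site alters transcription in this copepod.

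Sediment elutriate is the water phase left after sediment has been stirred in water, and it carries dissolved and fine-particle-bound metals and organic contaminants together with salts and organic matter of the sediment. Copepods are known to answer such mixtures through detoxification enzymes, metal-binding proteins, chaperones and cuticle genes. The deposited table gives gene identifiers without names or products, so it could not be said which of these functions, if any, the 59 genes serve, and the lists of gene functions and of cell type markers could not be matched. In whole animals, fewer cells of a type and less RNA per cell cannot be told apart.

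Each library held from 13.6 to 17.2 M reads in genes, and the 59 genes together took from 0.172% to 0.196% of them. The lowest count of any of the 59 in any library was 34 reads. The median level of the 59 genes was a normalised count of 280.2, against 305 for all genes with a mean of at least 50. Control replicate 3 held the Control value farthest from Tancarville in 37 of the 59 genes, against 11 each for Control replicates 1 and 2. In those 37 genes it set the far edge of the Control range within which Fatouville values were counted. The rule favours genes with a wide Control range, because Fatouville values had to lie within it. The share over all genes was not counted, so these numbers are a description. Without Control replicate 3 the rule was met by 35 genes, of which 22 were among the 59.

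The differences from Control were small. Among the 24 higher genes the mean log2 difference of Tancarville from Control had a median of 0.37 and ranged from 0.13 to 1.25. Among the 35 lower genes it had a median of -0.29 and ranged from -0.62 to -0.094. Of the 24 higher genes 2 were at least 1.5-fold from Control and 1 of these was at least 2-fold, and of the 35 lower genes 1 was at least 1.5-fold and 0 were at least 2-fold. Over all 14371 genes the median of this difference was -0.025. Membership rested on the log2 gap between the nearest Tancarville and Control values, whose median in the set was 0.035. With TMM scaling the median difference was 0.38 for the higher and -0.28 for the lower genes. With quantile normalisation these medians were 0.31 and -0.29. Of the genes in the set, 46 met the rule again with TMM scaling and 26 with quantile normalisation, so membership depended on the scaling.

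**Figure D1:**
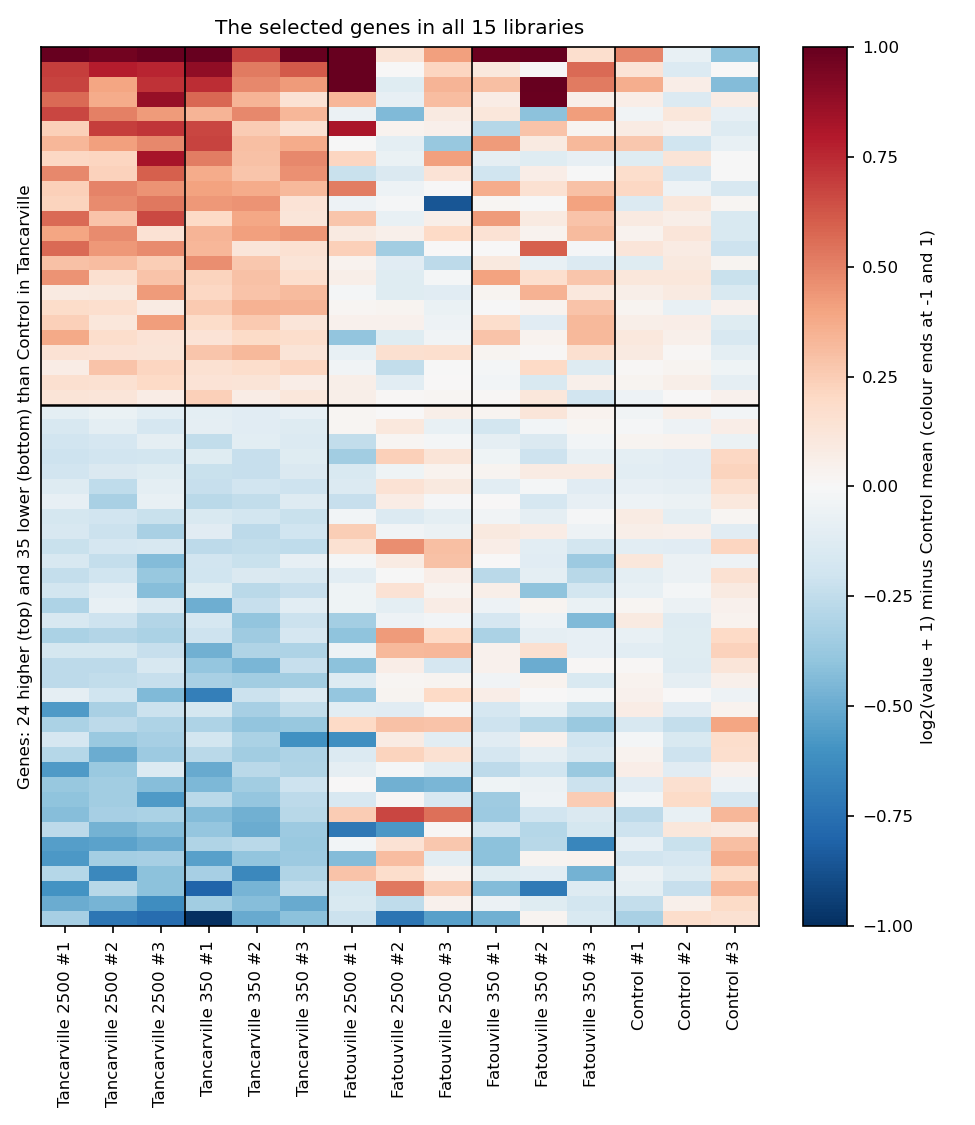
Each row is 1 of the 59 genes and each column 1 of the 15 libraries (# gives the replicate), and the colour is log2(value + 1) minus the gene's Control mean. The 6 Tancarville columns have 1 colour throughout each block because the rule required it, while the Fatouville columns hold both colours in both blocks.

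The level of the set was compared library by library. Among the 24 higher genes the median log2 level above the Control mean was 0.31, 0.30 and 0.44 with Tancarville elutriate at 2500 mg/L, and 0.34, 0.30 and 0.19 with the same elutriate at 350 mg/L. With Fatouville elutriate it was 0.057, -0.079 and 0.015 at 2500 mg/L, and 0.084, 0.076 and 0.22 at 350 mg/L, against 0.074, 0.056 and -0.096 in Control. Fatouville 350 mg/L replicate 3 thus lay above Tancarville 350 mg/L replicate 3 on this median, and the other Fatouville libraries lay among or close to the Control libraries. Among the 35 lower genes the median with Tancarville elutriate was -0.26, -0.26 and -0.32 at 2500 mg/L, and -0.27, -0.30 and -0.23 at 350 mg/L. With Fatouville elutriate it was -0.13, 0.070 and 0.034 at 2500 mg/L, and -0.11, -0.092 and -0.14 at 350 mg/L, against -0.061, -0.089 and 0.12 in Control. For these lower genes all 3 Fatouville 350 mg/L libraries and Fatouville 2500 mg/L replicate 1 lay below each of the 3 Control libraries.

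**Figure D2:**
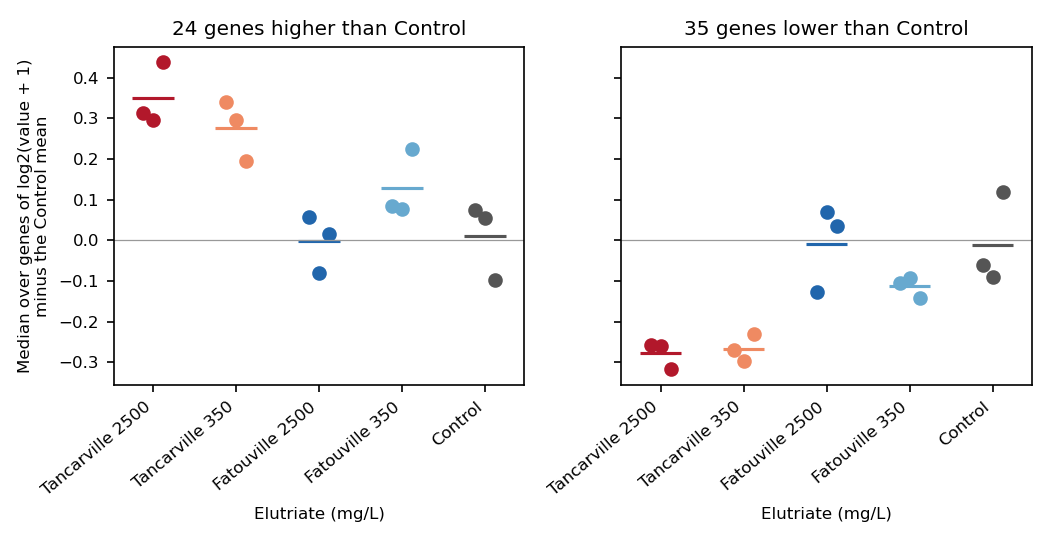
Points are libraries and give the median, over the 24 higher genes (left) or the 35 lower genes (right), of log2(value + 1) minus the gene's Control mean, and the bars are the means of 3 libraries. Fatouville 350 mg/L replicate 3 stands at 0.22 among the higher genes, above the lowest Tancarville library at 0.19.

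Of the genes that were higher, LOC111707194 had the widest gap. With Tancarville elutriate its normalised counts (reads divided by the library's size factor) were 87.3, 93.4 and 92.1 at 2500 mg/L, and 100.5, 77.6 and 82.6 at 350 mg/L. With Fatouville elutriate they were 124.5, 54.1 and 62.6 at 2500 mg/L, and 57.9, 53.6 and 80.1 at 350 mg/L, against 59.1, 48.8 and 53.9 in Control. The highest of all 15 values was therefore that of a Fatouville library, and Fatouville 350 mg/L replicate 3 also lay above the lowest Tancarville value. The Tancarville means were 90.9 ± 3.2 at 2500 mg/L and 86.9 ± 12.0 at 350 mg/L, against 53.9 ± 5.2 in Control (SD, n = 3 each), a log2 difference of 0.71 between Tancarville and Control.

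LOC111708782 was the second by gap among the higher genes. Its normalised counts with Tancarville elutriate were 373, 331 and 314 at 2500 mg/L, and 296, 327 and 294 at 350 mg/L. With Fatouville elutriate they were 224, 172 and 248 at 2500 mg/L, and 253, 176 and 313 at 350 mg/L, against 228, 253 and 221 in Control. Only 1 Fatouville library, Fatouville 350 mg/L replicate 3, reached the Tancarville values, and 2 Fatouville libraries lay well below Control. The log2 difference was 0.46 between Tancarville and Control and -0.050 between Fatouville and Control.

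Of the genes that were lower, LOC111717610 had the widest gap. Tancarville animals had 73.9, 57.2 and 67.6 normalised counts at 2500 mg/L, and 71.5, 57.2 and 72.8 at 350 mg/L. Fatouville animals had 110.3, 101.7 and 92.3 at 2500 mg/L, and 82.9, 83.7 and 64.6 at 350 mg/L, against 86.3, 82.2 and 103.1 in Control. At 2500 mg/L the sites did not overlap in this gene, while at 350 mg/L Fatouville replicate 3 lay within the Tancarville values. The log2 difference from Control was -0.44 for Tancarville and -0.034 for Fatouville.

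LOC111700291 came next among the lower genes. Tancarville animals had 60.4, 71.2 and 71.4 normalised counts at 2500 mg/L, and 61.8, 68.4 and 69.8 at 350 mg/L. Fatouville animals had 66.5, 112.3 and 83.8 at 2500 mg/L, and 67.9, 92.2 and 92.6 at 350 mg/L, against 78.8, 80.3 and 116.4 in Control. Fatouville 2500 mg/L replicate 1 and Fatouville 350 mg/L replicate 1 lay within the Tancarville values. The Control mean of 91.8 ± 21.3 (SD, n = 3) had its wide spread from Control replicate 3. Without that library the log2 difference between Tancarville and Control was -0.24, against -0.42 with it.

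**Figure D3:**
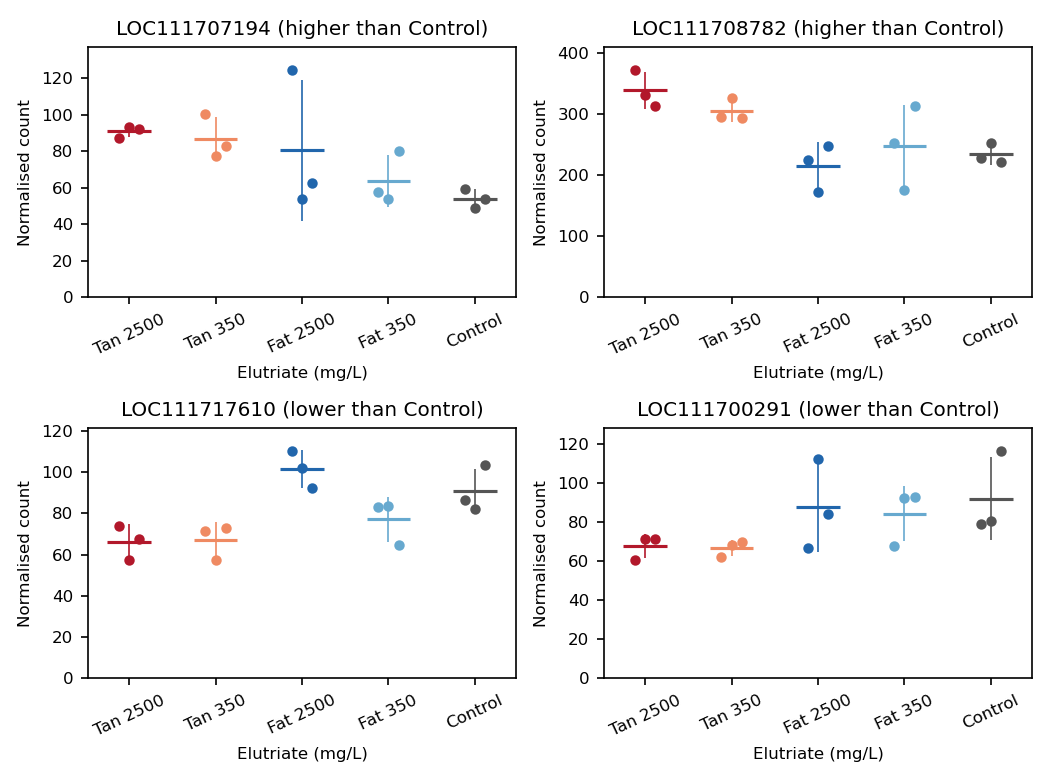
Normalised counts of the 2 higher and 2 lower genes with the widest gaps, with 1 point per library, the mean of 3 libraries as a bar and ± 1 SD as a thin line. In LOC111707194 the highest point, 124.5, is a Fatouville 2500 mg/L library, and in each of the 4 genes at least 1 Fatouville point lies among the Tancarville points or beyond them.

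The gaps that placed genes in the set were narrow beside the errors of the values. The log2 gap between the nearest Tancarville and Control values had a median of 0.035 over the 59 genes, a step of 2.47%, and its largest value was 0.39, a 1.31-fold step. It was smaller than the counting error of the 2 libraries that formed it (1 standard error from the reads alone) in 56 of the 59 genes, and it exceeded 2 times that error in 0 genes. It exceeded the gene's own SD within groups in 3 of the 59. The difference between the means of Tancarville and Control was larger than this SD in all 59, which the choice of the genes brings with it. At the edge of the rule the narrowest gap inside was 0.00060 and the nearest gene outside, whose groups overlapped, was at -0.0010 on the log2 scale. The lowest mean level inside was 58.5 and the highest just outside was 49.9.

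**Figure D4:**
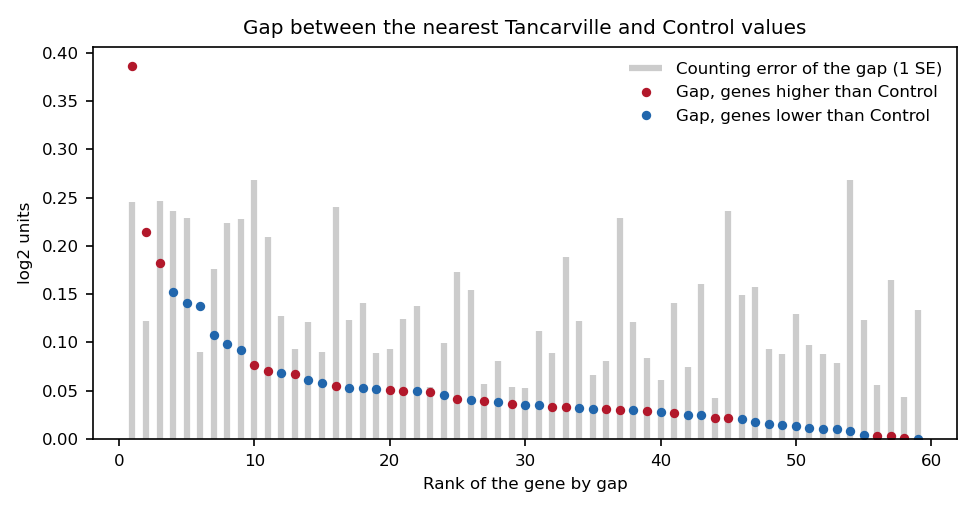
For each gene, in order of rank, the point is the log2 gap between the nearest Tancarville and Control values and the grey line runs up to 1 counting standard error of that gap. Points lie above the end of their line in 3 of the 59 genes.

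The label of a set shifted by Tancarville and not by Fatouville says more than the rule asked for. In 39 of the 59 genes exactly 3 Fatouville values lay within the Control range, the fewest the rule allowed, in 15 genes 4 did, in 5 genes 5 did, and in 0 genes all 6 did. A further 110 genes met the conditions on level, Tancarville and Control with exactly 2 Fatouville values in that range, at either concentration. Of the 354 Fatouville values, 202 were within the Control range, 114 lay beyond it on the same side as Tancarville and 38 lay beyond it on the other side. At least 1 Fatouville value lay on the Tancarville side of Control in 52 of the 59 genes, and 101 of the 354 values reached or passed the nearest Tancarville value. The Fatouville mean was on the Tancarville side of the Control mean in 18 of the 24 higher genes and 29 of the 35 lower genes. Both sites were set against the same 3 Control libraries, whose values chose the genes, which can favour that side without any effect of Fatouville. The rule also kept at least 3 Fatouville values within the Control range, which limits the number beyond it. The net direction of these conditions was not worked out. Values outside the range of only 3 libraries are also common in genes that do not shift. These counts are therefore a description, and no effect of Fatouville is read from them.

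These values differed between Fatouville libraries. At Fatouville 2500 mg/L, 24, 8 and 10 genes had a value on the Tancarville side of Control in replicates 1, 2 and 3. At Fatouville 350 mg/L the numbers were 22, 20 and 30. In all, 42 of the 177 values at Fatouville 2500 mg/L were on that side, against 72 of the 177 values at Fatouville 350 mg/L. The rule asked for at least 1 value at 2500 mg/L within the Control range and for none at 350 mg/L in particular. That condition kept out 4 genes that met the others.

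**Figure D5:**
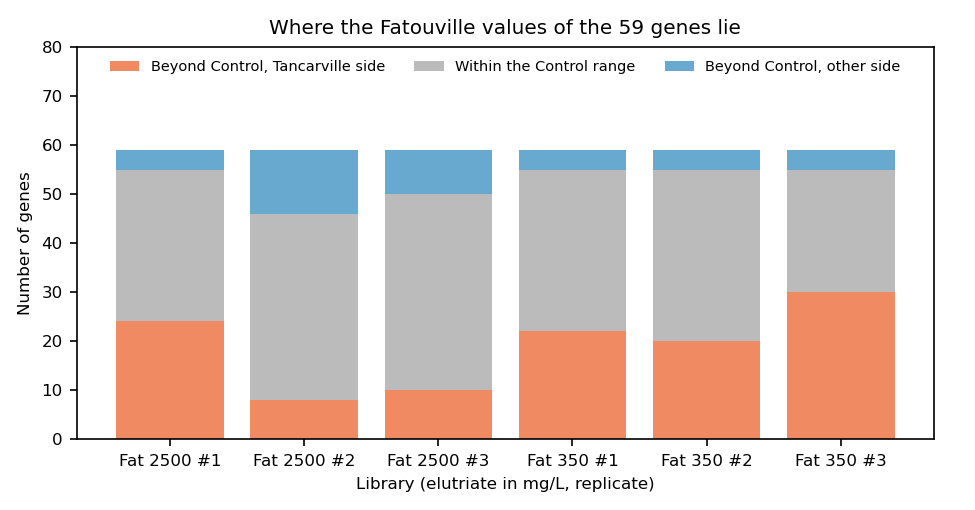
Bars divide the 59 genes, for each of the 6 Fatouville libraries, by where the library's value lies relative to the 3 Control values. From 8 genes in Fatouville 2500 mg/L replicate 2 to 30 genes in Fatouville 350 mg/L replicate 3 were beyond Control on the Tancarville side.

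The Tancarville and Fatouville values were free of overlap in 10 of the 59 genes, 3 higher and 7 lower. Among all 14371 genes 0.591% had all 6 Tancarville values beyond all 6 Fatouville values, and since the rule used both sites the count of 10 is a description. Among all 14371 genes, 551 (3.83%) had all 6 Tancarville values beyond all 3 Control values, 254 (1.77%) higher and 297 (2.07%) lower. In 358 of the 551, at least 4 Fatouville values were also on the Tancarville side, in 103 all 6 were, and the 59 genes were 10.7% of the 551. With the roles of the sites exchanged, 635 genes (4.42%) had all 6 Fatouville values beyond all 3 Control values, and 86 genes (0.598%) had Tancarville values within the Control range by the same condition, against 59 (0.411%) for the set described here. Both counts use the same Control libraries.

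A model across all genes was also fitted. Of 18921 genes tested by limma over all 15 libraries, 5 (0.0264%) had an adjusted p below 0.05 between the mean of the Tancarville groups and Control, and 0 of the 59 were among them. Between the means of Tancarville and Fatouville 0 genes (0%) passed, against 3210 (17%) at an unadjusted p below 0.05. In both of these comparisons the values chose the 59 genes, so nothing is read from the members' counts. edgeR called 5 genes (0.0264%) and 0 genes (0%) in these comparisons, with 0 in the set in both. DESeq2 called 149 genes (0.787%) between Tancarville and Control, 2 of them in the set, and 555 (2.93%) between Tancarville and Fatouville, 8 of them in the set. Without Fatouville 2500 mg/L replicate 1, limma called 362 genes between the sites, 6 of them in the set. It called 138 without Fatouville 350 mg/L replicate 3 and 126 without Control replicate 3, with 1 and 3 in the set. In these fits the genes to test were selected anew, so their number can differ from 18921 and no share is given.

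The Tancarville concentrations were then compared. The rule did not use their order, but it used all 6 of their values and favoured genes alike at both, because it ranked and admitted genes by their nearest Tancarville value. The members' counts and intervals below therefore describe the chosen genes, and no absence of a concentration effect is read from them. The higher genes stood higher at 2500 than at 350 mg/L in 16 of 24 cases, with a median log2 difference of 0.063. The lower genes stood higher at 2500 mg/L in 20 of 35 cases and were therefore farther from Control in 15, with a median of 0.015. Over all genes with a mean of at least 50 the median was 0.0024 and 50.5% stood higher at 2500 mg/L. All 59 genes were among the 18921 tested. By limma at an adjusted p below 0.05, 0 of the 59 and 0 (0%) of the 18921 differed between the concentrations. At an unadjusted p below 0.05 there were 0 of the 59 and 1086 (5.74%) of all genes, edgeR called 0 genes (0%) and DESeq2 called 3 (0.0159%), with 0 in the set by either. The 95% interval of the difference lay within a 1.5-fold change either way in 53 of the 59 genes and within a 2-fold change in 58.

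The 4 genes nearest to a difference between the concentrations were 2 that stood higher and 2 that stood lower at 2500 mg/L. LOC111698797 had 833, 687 and 892 normalised counts at Tancarville 2500 mg/L, against 648, 737 and 614 at Tancarville 350 mg/L (log2 difference 0.27, 95% interval -0.010 to 0.54, limma adjusted p = 0.857). Its groups overlapped, and its Control values were 601, 586 and 508. LOC111714417 had 1769, 1618 and 1664 at Tancarville 2500 mg/L, against 1510, 1306 and 1333 at Tancarville 350 mg/L (log2 difference 0.29, 95% interval -0.062 to 0.63, limma adjusted p = 0.857). Its concentrations did not overlap, its Control values were 1303, 1268 and 1040, and Fatouville 350 mg/L replicate 2 was at 1813, above all of them.

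LOC111717321, a lower gene, had 176, 177 and 182 normalised counts at Tancarville 2500 mg/L, against 209, 213 and 199 at Tancarville 350 mg/L (log2 difference -0.21, 95% interval -0.51 to 0.091, limma adjusted p = 0.871). Its Control values were 243, 221 and 318, and its Fatouville 350 mg/L values of 194, 212 and 163 lay among or below those of Tancarville, while its Fatouville 2500 mg/L values of 253, 285 and 310 lay within the Control range. LOC111702213, a higher gene, had 143, 141 and 133 at Tancarville 2500 mg/L, against 151, 160.3 and 159 at Tancarville 350 mg/L (log2 difference -0.17, 95% interval -0.43 to 0.091, limma adjusted p = 0.877). Its Control values were 129, 119.5 and 130, so this gene stood closer to Control at the higher concentration. In each of LOC111714417, LOC111717321 and LOC111702213 the values of the concentrations did not overlap, and none of the 3 differences passed the test. These genes were named for their small p, and the share of all genes without such overlap was not counted. Nothing is therefore read from the lack of overlap.

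Beyond the group means the genes varied together only in part. Deviations from the group means over the 15 libraries had a median pairwise correlation of 0.12 among the 24 higher genes and 0.18 among the 35 lower genes, and of -0.15 between higher and lower genes, against -0.00074 over all pairs of genes with a mean of at least 50. Correlations above 0.5 made up 15.9% of 276 pairs of higher genes and 22.0% of 595 pairs of lower genes, against 9.65% over all pairs. All of these points share the same 15 libraries, and the rule chose the genes and their direction by values in them. That choice can itself bring such correlations, and the pairs over all genes were not sorted by direction. The correlations are therefore a description. The SD within groups had a median of 0.14 on the log2 scale in the 59 genes and of 0.20 in all genes with a mean of at least 50. The rule favours genes with little spread among the Tancarville values, so this lower median can come with the choice.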

How the data were processed

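Pools were sequenced from 200 ng of total RNA each, per the labels' protocols. Tools named in the submitters' processing notes are STAR, Salmon, HTSeq 0.11.2 and DESeq2, with no roles; not given in the sources used here are the genome build, annotation and strandedness. The authors deposited a normalised signal per gene, in which every value (100%, tolerance 1e-06) was a whole number of reads times a constant of its library, so reads could be recovered. Cook's distances, a score the authors deposited beside it, served as a description only.

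The rule was applied to the deposited values. The genes and lists were chosen with earlier results of these data known. The test was limma 3.58.1 (R 4.3.3; trend, robust) on log2(value + 1), with a mean for each of the 5 groups, 2-sided, Benjamini-Hochberg adjusted over the 18921 genes that reached 10 in 3 or more libraries. The scale understates differences of low genes. edgeR 4.0.16 (quasi-likelihood, TMM) and DESeq2 1.42.0 on recovered reads were alternatives, and fits were tested on simulated data. Because no source used here pairs identifiers with names, the named genes are the 2 higher and 2 lower with the widest gap and, between concentrations, with the smallest p. The p-values judge differences between groups against the spread between pools of the same group. Counting errors cover counting only. All replicate pairs differed by more than sampling noise (chi-square per degree of freedom at least 10.8). Reads shared between near-identical genes were not examined.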

Additional observations from a re-analysis of the deposited data

How the results depend on the processing

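Both the size and the membership of the set depended on the processing. TMM scaling gave 63 genes, 46 of them among the 59, and quantile normalisation gave 82, of which 26 were among the 59. A mean of at least 20 gave 65 genes and a mean of at least 200 gave 39, all 39 in the set. Asking for at least 4 Fatouville values within the Control range left 20 genes, all in the set, and no condition on Fatouville gave 519. Leaving out 1 library at a time gave 34 (without Fatouville 2500 mg/L replicate 3) to 147 genes (without Tancarville 350 mg/L replicate 3), and 22 (without Control replicate 3) to 59 of the 59 met the rule again. Without Control replicates 1 and 2, 38 and 36 of the 59 did, and without Fatouville 2500 mg/L replicates 1, 2 and 3, 39, 35 and 34 did. Part of this overlap was set by the rule. A stricter threshold can only give genes within the set. Leaving out a Tancarville library loosens the condition against Control, and all 59 met the rule each time. Leaving out a Fatouville library still asked for 3 values in range, so it can only remove genes. Such overlaps are no sign of stability.

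Between the Tancarville concentrations DESeq2 called 3 genes and the other alternatives 0, and 0 of the 59 were called in any of the 24 alternatives. The adjusted p of the 4 genes named there ranged from 0.736 to 0.998. Between Tancarville and Control, DESeq2 called 149 genes, 2 in the set, and leaving out libraries gave 3 (without Control replicate 1, 2 or 3) to 6 genes, 0 in the set. Between the sites DESeq2 called 555 genes, 8 in the set, and leaving out libraries gave 0 to 362, with 0 to 6 in the set. The median difference between the concentrations was 0.011 for the higher and -0.017 for the lower genes after quantile normalisation, and 0.0084 (without Tancarville 2500 mg/L replicate 3) to 0.079 for the higher and -0.0041 to 0.029 for the lower genes with 1 library left out, those of the lower genes being below 0 without Tancarville 350 mg/L replicate 1 or 2. The cause of these changes was not tested.

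Between the Tancarville concentrations, deviations of same-number libraries correlated at -0.62, -0.16 and -0.56. They were also all negative for Tancarville 2500 mg/L with Fatouville 2500 mg/L (-0.46, -0.40 and -0.50). All 3 such correlations were above 0.1 for Tancarville 2500 mg/L with Control (0.25, 0.21 and 0.50) and for Tancarville 350 mg/L with Fatouville 350 mg/L (0.13, 0.38 and 0.47). In the remaining pairs of groups the signs were mixed. Libraries of different number were not correlated for comparison, so these values cannot settle whether the replicate numbers pair libraries. With the replicate block, limma called 0 genes between the concentrations, 5 between Tancarville and Control and 0 between the sites, as without it.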

Other observations

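The deposited Cook's distances, a measure of the weight of a single library in a gene's fit, were no higher in these genes than elsewhere. The highest distance over the 15 libraries had a median of 0.0858 in the 59 genes, against 0.124 in all genes with a mean of at least 50. The rule favours genes with little spread among the Tancarville values, so a lower median can come with the choice and is a description. The highest among the 59 was 0.879, in LOC111707194, the gene with the widest gap and with a Fatouville 2500 mg/L library as its highest value.

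The 3 Tancarville 350 mg/L values lay closest together on the medians of the range within groups. Among the 24 higher genes the median range within a group was 0.27 at Tancarville 2500 mg/L, 0.19 at Tancarville 350 mg/L, 0.36 at Fatouville 2500 mg/L and 0.33 at Fatouville 350 mg/L, against 0.25 in Control, on the log2 scale. Among the 35 lower genes it was 0.16, 0.15, 0.30 and 0.18 in the same order, against 0.27 in Control. The rule admits genes by the nearest Tancarville value and so favours genes with little spread there.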
